A study of Mus musculus with 36 samples.

Results

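The genes described here are 10 sensors, adaptors and enzymes that detect or limit foreign and misplaced nucleic acid: Ifih1, Dhx58, Trim25, Mavs, Zbp1, Aim2, Eif2ak2, Adar, Samhd1 and Trex1. They were picked by symbol, as the rows of the deposited RNA count table whose Ensembl identifiers carry those names, and make up 10 of 37991 gene rows. RNA came from the hippocampus of female mice aged 3 months per the labels. Mice labelled CKp25 were double-transgenic animals with 2 or 6 weeks of induced p25, a cleaved form of the Cdk5 activator p35, and their littermate controls, labelled CK, were collected at the same times. Each of the 4 groups held 3 libraries. In CK-p25 mice the transactivator that drives p25 is under the Camk2a promoter, which is active in excitatory forebrain neurons, and neurons are lost after induction. The transgene carried by the CK littermates was not given in the sources used here, and RNA of the p25 transgene was not analysed here. Nothing in the labels ties a library number to a separate animal, so each p-value reflects variation among libraries that could be purely technical.

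Cells recognise viral or self nucleic acid in the wrong compartment with a small set of receptors. RIG-I-like receptors bind double-stranded RNA in the cytosol and signal through MAVS on mitochondria, AIM2-like receptors and cGAS bind DNA, and ZBP1 binds nucleic acid in the left-handed Z form. The resulting type I interferon acts, through its receptor, on a DNA element, the interferon-stimulated response element (ISRE), in front of many of these same sensor genes. PKR (Eif2ak2), ADAR1, SAMHD1 and TREX1 act downstream or as brakes, by stopping translation, editing double-stranded RNA, removing nucleotides and digesting DNA. In brain, microglia are a main source of interferon-induced transcripts, although neurons and astrocytes also respond to interferon.

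Because several members and related genes are known interferon targets, the start regions were searched for the ISRE core on both strands, spelled GAAA, any 2 bases, GAAA (TTTC, any 2 bases, TTTC on the other strand). Promoter windows of RefSeq (mouse build GRCm38.p6), which run from 250 bases before to 50 after a gene's start, were supplied for 8 of the 10 members, and Zbp1 and Dhx58 had none. The core was present in 2 of these 8, Ifih1 and Eif2ak2, against 3.99% of 27025 genes with a window. A second pattern searched, the STAT site TTCNNNGAA (N is any base), was present in Samhd1, Adar and Eif2ak2, against 9.55% of genes. Among related genes of the same pathways, 13 of the 32 with a window that were called higher in CKp25 at 2 weeks held the core (40.6%), and 4 of the 35 tested and not called higher did (11.4%). These sets were split by the calls of these same data, from lists chosen with earlier results known. The 13 count similar copies such as Oas1a, Oas1c and Oas1g separately. Both shares therefore describe the listed genes and support nothing further. A match of letters is a description and shows no binding, and a window without one says only that these letters are not in it. The 30 bases around the match follow, 5′ to 3′ on the gene's strand with the core in capitals, for both members, for 5 related genes that were higher in CKp25 and for Tomm70a and Pld3, which were lower.
Ifih1: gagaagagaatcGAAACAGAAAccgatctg
Eif2ak2: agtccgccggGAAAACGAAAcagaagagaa
Ddx58: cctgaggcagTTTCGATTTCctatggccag
Ddx60: gagcagaagaGAAACCGAAActatccttca
Oas1a: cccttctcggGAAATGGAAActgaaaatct
Oas3: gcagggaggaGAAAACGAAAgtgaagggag
Bst2: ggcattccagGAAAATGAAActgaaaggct
Tomm70a: cctgcaagagGAAAGGGAAAagccacccag
Pld3: tcaGAAAGAGAAAtcatttatctgatcgta

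The Ifih1 stretch is chr2:62646206-62646235 on the minus strand, with the core starting at transcribed base 33, and the Eif2ak2 stretch is chr17:78882535-78882564 on the minus strand, with the core starting at transcribed base 19. The Ddx58 core, which lies in the opposite orientation, starts at transcribed base 3 (chr4:40239804-40239833, minus strand). In the other genes the core starts before the gene, by 19 bases in Ddx60 (chr8:61928058-61928087, plus strand), 20 in Oas1a (chr5:120907526-120907555, minus strand), 75 in Oas3 (chr5:120777715-120777744, minus strand), 119 in Tomm70a (chr16:57121585-57121614, plus strand), 130 in Bst2 (chr8:71537583-71537612, minus strand) and 247 in Pld3 (chr7:27553439-27553468, minus strand). Eif2ak2 and Oas3 share the same 10 letters, GAAAACGAAA. Ddx60, Oas1a and Bst2 each hold a further core in the same window. Of the 13 related genes called higher that hold the core, those not printed include Ripk1 and Cflar, which rose by 0.73 and 0.65 at 2 weeks.

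Libraries held 5029996 to 6450140 gene counts. Levels are CPM, the usual scaling of read counts to a common library total, on library sizes adjusted by TMM, a method that lines up the bulk of genes between libraries, and they are compared between groups and not between genes, because no transcript lengths were used. A gene is called higher or lower where the Benjamini-Hochberg adjusted p of edgeR's quasi-likelihood test, over all 14457 genes tested, is at most 0.05. Hippocampal identity was visible in the marker genes: the summed level of 6 excitatory neuron markers was 2585 to 3108 CPM in CK. Of the members 9 could be tested, and Trex1 had no reads. Of these, Zbp1, Dhx58 and Aim2 passed the low-count filter through their CKp25 libraries and 6 would pass on the CK libraries alone, so the counts of members called describe these genes and support nothing further.

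At 2 weeks, 7 of the 9 members tested were called higher in CKp25 and none lower, where 19.6% of all genes tested were called, 11.6% higher and 7.99% lower. At 6 weeks 8 of 9 were called higher, where 33.3% of genes were called, 18.1% higher and 15.2% lower. The median log2 fold change over the 9 members was 2.52 at 2 weeks and 2.25 at 6 weeks, beside -0.01 and 0.00 over all genes tested. All 3 CKp25 libraries lay above all 3 CK libraries in 8 of 9 members at 2 weeks, all but Mavs, and in 8 of 9 at 6 weeks, all but Adar. Such separation was seen in 18.4% of genes at 2 weeks and 23.6% at 6 weeks, and the opposite order in 0 members and 17.8% and 21.6% of genes. The members fell into a strongly changed set (Zbp1, Dhx58, Eif2ak2, Ifih1, Trim25), a set with smaller changes (Aim2, Samhd1, Mavs) and Adar. In RNA from whole tissue, more cells of a type and more RNA per cell cannot be told apart.

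**Figure D1:**
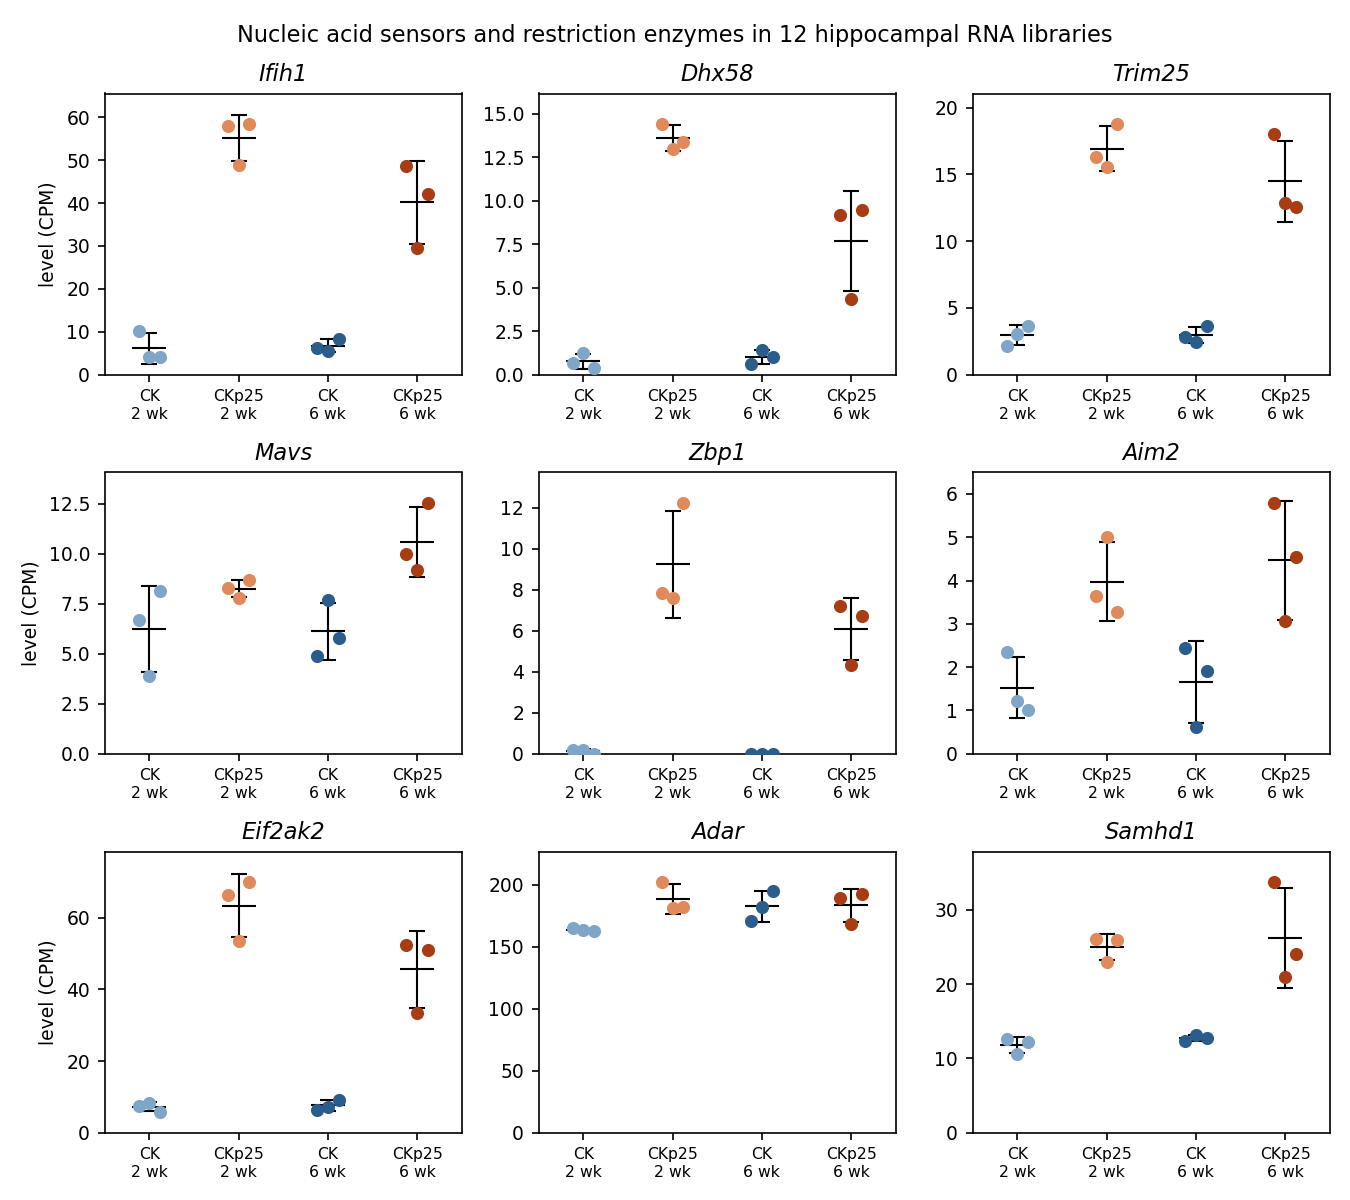
Level of each of the 9 members with reads in every library, in CPM on linear axes from 0, for CK and CKp25 at 2 and 6 weeks. Points are libraries (3 per group), horizontal marks are means and bars are SD. In Ifih1 all 6 CKp25 libraries lie between 29.6 and 58.5 CPM and all 6 CK libraries between 4.06 and 10.2, while in Adar the groups lie between 163 and 203 CPM.

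Ifih1 encodes MDA5, which binds long double-stranded RNA and starts interferon production. At 2 weeks its level was 10.2, 4.09 and 4.06 CPM in the CK libraries and 57.9, 49.0 and 58.5 CPM in the CKp25 libraries. At 6 weeks it was 6.31, 5.46 and 8.38 CPM in CK and 48.6, 29.6 and 42.2 CPM in CKp25. The genotypes did not overlap at either time, and the highest CK library, CK_2wk_4520, reached less than the lowest CKp25 library. Ifih1 rose by a log2 fold change of 3.12 ± 0.25 (SE, adjusted p = 8.1e-08, edgeR) at 2 weeks and 2.55 ± 0.25 (adjusted p = 1.15e-06) at 6 weeks.

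Dhx58 encodes LGP2, a RIG-I-like receptor without the signalling domains of its relatives, which modulates MDA5 and RIG-I. At 2 weeks it stood at 0.67, 1.23 and 0.41 CPM in CK and at 14.4, 13.0 and 13.4 CPM in CKp25. At 6 weeks the CK libraries held 0.61, 1.42 and 1.05 CPM and the CKp25 libraries 9.20, 4.35 and 9.46 CPM. The CKp25 libraries were close to each other at 2 weeks and spread at 6 weeks, where CKp25_6wk_3940 was the low one. The log2 fold change was 4.12 ± 0.37 (adjusted p = 3.04e-07, edgeR) at 2 weeks, from 251 counts in CKp25 against 12 in CK, and 2.86 ± 0.38 (adjusted p = 2.19e-05) at 6 weeks, from 125 against 16.

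Trim25 encodes a ubiquitin ligase that acts on the RIG-I pathway and on the zinc-finger antiviral protein. Its level at 2 weeks was 2.18, 3.07 and 3.66 CPM in CK and 16.3, 15.6 and 18.8 CPM in CKp25. At 6 weeks it was 2.85, 2.43 and 3.67 CPM in CK and 18.0, 12.9 and 12.5 CPM in CKp25. No CK library came near a CKp25 library, and the CK values at the 2 times covered the same range. Trim25 rose by 2.52 ± 0.22 on the log2 scale (adjusted p = 2.63e-07, edgeR) at 2 weeks and by 2.25 ± 0.23 (adjusted p = 1.3e-06) at 6 weeks.

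Mavs, the mitochondrial adaptor on which MDA5 and RIG-I converge, had smaller estimates than the receptors upstream of it. At 2 weeks the CK libraries held 6.71, 3.89 and 8.13 CPM and the CKp25 libraries 8.31, 7.79 and 8.66 CPM, and the groups overlapped. At 6 weeks they held 4.88, 7.69 and 5.76 CPM and 9.999, 9.18 and 12.5 CPM, with no overlap. The log2 fold change was 0.40 ± 0.24 (adjusted p = 0.278, edgeR) at 2 weeks and 0.79 ± 0.24 (adjusted p = 0.0163) at 6 weeks, so Mavs was called higher at 6 weeks. That call was lost without CK_6wk_3936 (adjusted p = 0.0763), without CK_6wk_4009 (0.051) or without CKp25_6wk_4008 (0.0786), within a range of 0.0043 to 0.0786 over 23 alternatives. The difference between the 2 effects was 0.39 ± 0.34 (adjusted p = 0.661), so the effects at 2 and 6 weeks were not shown to differ.

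**Figure D2:**
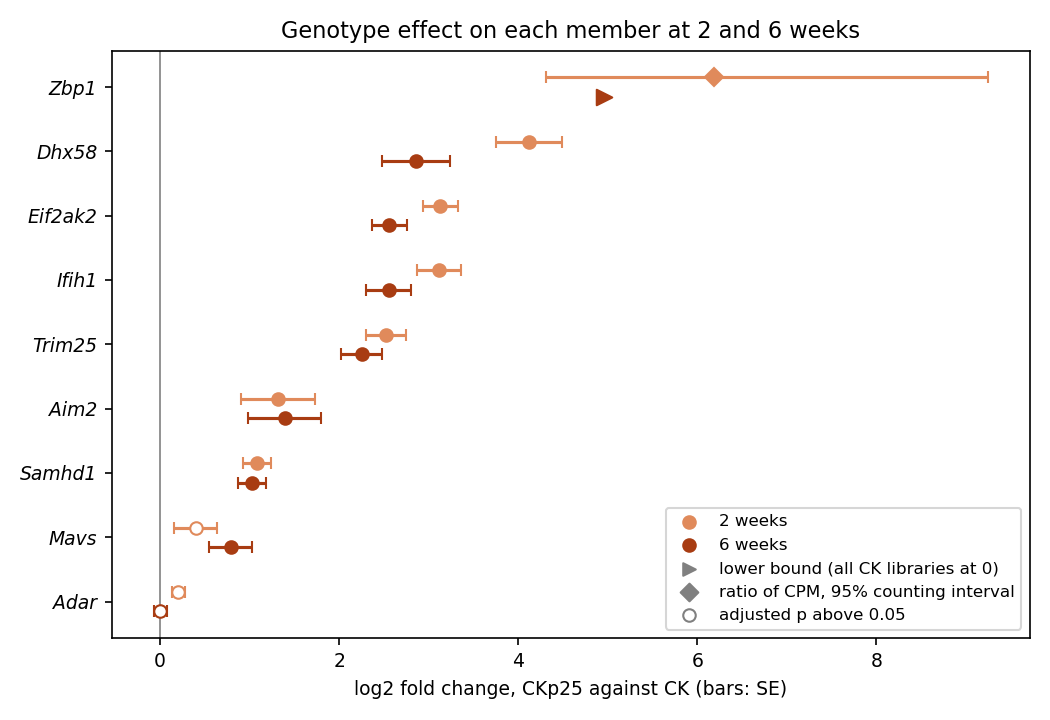
Log2 fold change of CKp25 against CK for 9 members at 2 weeks (light) and 6 weeks (dark), with SE. Filled circles passed an adjusted p of 0.05. For Zbp1 the diamond is the ratio of summed counts at equal depth (73.0-fold) with its 95% counting interval and the triangle a lower bound (31.1-fold), because CK held 2 counts at 2 weeks and 0 at 6 weeks. Estimates run from Zbp1 and Dhx58 at the top to Adar, which sits at 0.21 and 0.00.

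Zbp1 encodes a sensor of Z-form RNA and DNA that can start necroptosis through RIPK3, and it was close to silent in CK. Its counts in CK were 1, 1 and 0 at 2 weeks and 0 in all 3 libraries at 6 weeks. In CKp25 they were 54, 41 and 75 at 2 weeks (7.87, 7.60 and 12.3 CPM) and 36, 27 and 37 at 6 weeks (7.20, 4.35 and 6.73 CPM). At 2 weeks the ratio of the summed counts at equal depth was 73.0 (95% counting interval 19.9 to 607), and at 6 weeks the level was at least 31.1-fold higher, taking 3 counts over the 3 CK libraries as the floor. Such intervals and floors cover counting error only, since reads are not known to be independent molecules. The adjusted p of edgeR was 7.33e-07 at 2 weeks and 2.26e-06 at 6 weeks. The Zbp1 change between times within CK is not given, as both groups are at or under the floor.

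Aim2 encodes the receptor that assembles an inflammasome on cytosolic DNA. At 2 weeks it stood at 2.35, 1.23 and 1.02 CPM in CK and 3.64, 5.01 and 3.27 CPM in CKp25. At 6 weeks it stood at 2.44, 0.61 and 1.92 CPM in CK and 5.80, 3.06 and 4.55 CPM in CKp25. The groups did not overlap, but the margin was narrow and rested on 3 to 29 counts per library. Aim2 rose by 1.31 ± 0.41 (adjusted p = 0.0322, edgeR) at 2 weeks and 1.39 ± 0.41 (adjusted p = 0.0139) at 6 weeks. Leaving out CK_2wk_4891 (adjusted p = 0.113), CK_2wk_4893 (0.131) or CKp25_2wk_4890 (0.112) ended the call at 2 weeks, and leaving out CK_6wk_3938 (0.0686) or CKp25_6wk_3937 (0.0724) ended that at 6 weeks. Thinning all counts to 50% also ended it at 2 weeks (0.88, adjusted p = 0.257). Over the 23 alternatives the edgeR, DESeq2 or limma-voom adjusted p of Aim2 ran from 0.00374 to 0.257 at 2 weeks and from 0.000937 to 0.0724 at 6 weeks. In the annotation Aim2 overlaps Cadm3, a neuronal adhesion gene with 811 to 1677 counts per library, and whether reads were counted by strand was not given in the sources used here. Reads of the 2 genes may therefore be shared.

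Eif2ak2 encodes PKR, the kinase that binds double-stranded RNA and phosphorylates eIF2α to halt translation, and it had the lowest adjusted p of the members at both times. It stood at 7.38, 8.39 and 5.89 CPM in CK and 66.5, 53.4 and 70.1 CPM in CKp25 at 2 weeks. At 6 weeks it stood at 6.31, 7.28 and 9.25 CPM in CK and 52.4, 33.3 and 51.1 CPM in CKp25. Every CKp25 library was above every CK library by a wide margin, and CKp25_6wk_3940 was again the lowest of its group. Eif2ak2 rose by 3.13 ± 0.19 (adjusted p = 5.12e-09, edgeR) at 2 weeks and 2.56 ± 0.20 (adjusted p = 6.09e-08) at 6 weeks. A transcribed pseudogene, Gm6548, overlaps its annotated span and had 6 to 128 counts per library, so Eif2ak2 reads may partly be counted there.

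Adar encodes ADAR1, the enzyme that turns adenosine into inosine in double-stranded RNA and so keeps self RNA from triggering MDA5 and PKR. It was well covered, with 799 to 1390 counts per library. At 2 weeks it stood at 165, 163 and 163 CPM in CK and 203, 181 and 182 CPM in CKp25, without overlap. At 6 weeks it stood at 171, 182 and 195 CPM in CK and 189, 168 and 193 CPM in CKp25, with full overlap. The log2 fold change was 0.21 ± 0.08 (adjusted p = 0.0656, edgeR) at 2 weeks and 0.00 ± 0.08 (adjusted p = 0.98) at 6 weeks, and neither was called. The 2-week value passed the threshold in 4 of 23 alternatives: without CKp25_6wk_3940 (adjusted p = 0.0416), with the 2-week groups alone (0.0438), with a term for the series of library numbers (0.0392) and with counts thinned to 50% (0.0466). The range over all 23 was 0.0392 to 0.268. Adar overlaps Chrnb2, which had 209 to 388 counts. The table counts whole genes, so the interferon-induced long form of ADAR1 and the constitutive short form were not separated.

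Samhd1 encodes a dNTP hydrolase that restricts retroviruses and limits self DNA. It stood at 12.6, 10.6 and 12.2 CPM in CK and 26.1, 23.0 and 26.0 CPM in CKp25 at 2 weeks. At 6 weeks it stood at 12.4, 13.2 and 12.7 CPM in CK and 33.8, 20.9 and 24.0 CPM in CKp25. The CK libraries were tightly grouped at both times and all CKp25 libraries lay above them. Samhd1 rose by 1.08 ± 0.16 (adjusted p = 9.42e-05, edgeR) at 2 weeks and 1.03 ± 0.16 (adjusted p = 0.000104) at 6 weeks, and the call held in all 23 alternatives run at each time.

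Trex1, the main cytosolic DNA 3′ exonuclease, was listed at 0 in 12 of 12 libraries. A count of 0 allows up to 3 counts, which is 0.437 to 0.614 CPM depending on the library. RefSeq lists a read-through transcript, Atrip-trex1, over the gene, and reads that fall in more than 1 gene, which the deposited table sets aside, were 0.137 to 0.165% of a library. Atrip itself, looked up after these zeros were seen, had 101 to 142 counts per library and log2 fold changes of -0.05 (adjusted p = 0.777, edgeR) and -0.04 (adjusted p = 0.847). No statement on Trex1 can be made beyond that listing.

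The design also asked whether the members changed between 2 and 6 weeks of induction. The difference between the 2 genotype effects was called for 0 of 9 members, where 0.553% of genes tested were called. No member had an unadjusted p under 0.05 in edgeR for this difference, and DESeq2 and limma-voom also called 0 of 9. The estimates were nearest the threshold in Dhx58 (-1.26 ± 0.63, adjusted p = 0.379), Eif2ak2 (-0.57 ± 0.30, adjusted p = 0.405) and Adar (-0.20 ± 0.11, adjusted p = 0.411).

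Within CKp25, 2 of 9 members were called between the times, both lower at 6 weeks, where 5.53% of genes were called lower and 6.12% higher. Dhx58 fell by 0.84 ± 0.25 (adjusted p = 0.0376, edgeR) and Eif2ak2 fell by 0.48 ± 0.15 (adjusted p = 0.0459). Ifih1 had an estimate of -0.47 ± 0.19 (adjusted p = 0.131) and Zbp1 of -0.61 ± 0.27 (adjusted p = 0.164). Ifih1 was called lower in 3 alternatives, with no low-count filter (adjusted p = 0.00113), without CK_2wk_4520 (0.0441) and with choroid plexus markers as a covariate (-0.59, adjusted p = 0.00412). All 3 libraries at 6 weeks lay below all 3 at 2 weeks in these 4 members, a separation found in 14.4% of genes, while in Mavs all 3 lay above (0.35 ± 0.22, adjusted p = 0.347), found in another 14.4%. The remaining estimates were Trim25 -0.23 ± 0.18, Adar -0.04 ± 0.07, Samhd1 0.06 ± 0.14 and Aim2 0.16 ± 0.35.

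Each call was lost when certain single libraries were left out. Without CKp25_2wk_4518, without CKp25_2wk_4894 or without CKp25_6wk_3940 neither was called, and DESeq2 called neither. Leaving out CK_2wk_4891, CK_2wk_4893, CKp25_2wk_4890, CK_6wk_3936, CK_6wk_3938, CKp25_6wk_3937 or CKp25_6wk_4008 left 1. CKp25_6wk_3940 was the lowest of its group in 8 of 9 members, and without it the changes were -0.57 in Dhx58 (adjusted p = 0.102) and -0.31 in Eif2ak2 (adjusted p = 0.123), where the alternatives ranged from 0.00315 to 0.102 for Dhx58 and from 0.000321 to 0.153 for Eif2ak2. Among the 2-week CKp25 libraries, CKp25_2wk_4890 was the lowest in 8 of 9. Within CK, 0 of 9 members and 0 of 14457 genes were called between the times by edgeR, DESeq2 or limma-voom, with 1 member (Adar) and 560 genes at an unadjusted edgeR p under 0.05. All 3 CK libraries at 6 weeks lay above all 3 at 2 weeks in Adar alone, an order seen in 4.92% of genes, and below in 0 members and 4.39% of genes. How long p25 had been on, the age reached and a possible batch per time point cannot be told apart.

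**Figure D3:**
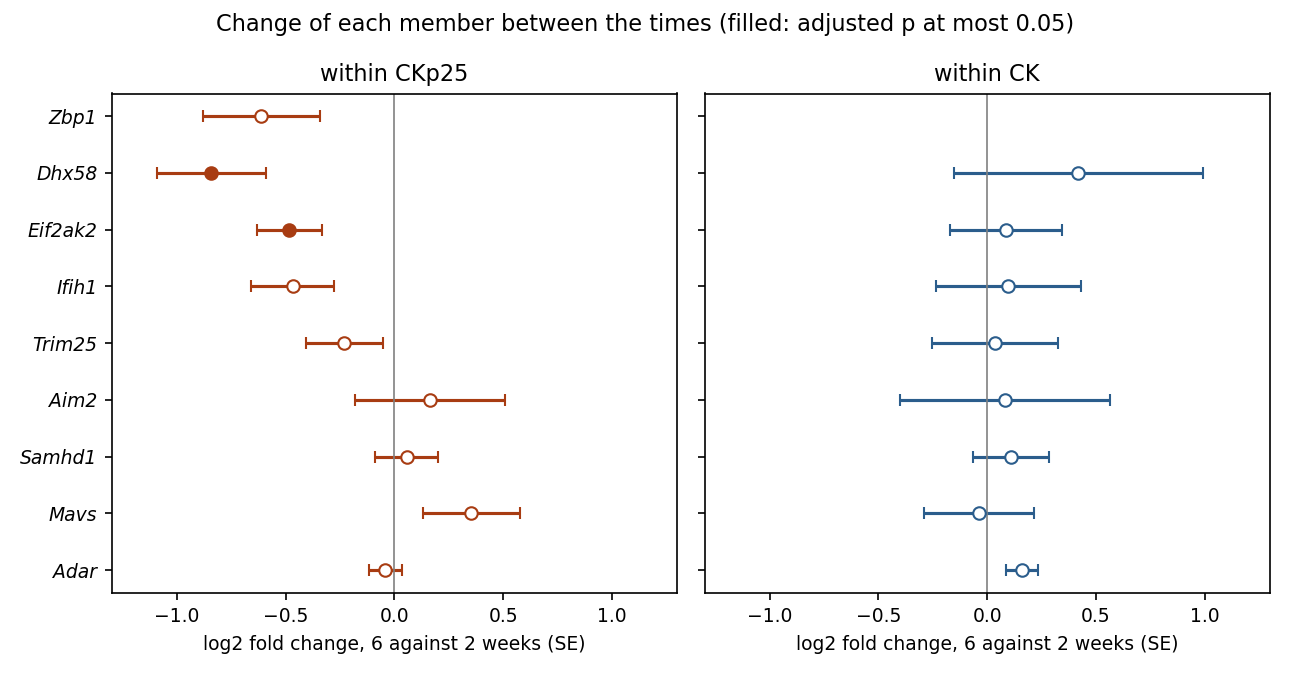
Log2 fold change of 6 against 2 weeks for the members, within CKp25 (left) and within CK (right), with SE. Filled points passed an adjusted p of 0.05, which are Dhx58 (-0.84) and Eif2ak2 (-0.48) in CKp25, and Zbp1 is not drawn in CK, where it had 2 counts at 2 weeks and 0 at 6 weeks.

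In order of level, both CKp25 group means lay above both CK means in all 9 members with reads, including Mavs and Adar, whose libraries overlapped at 2 and at 6 weeks respectively. CKp25 at 2 weeks was the highest group in Zbp1, Ifih1, Dhx58, Eif2ak2, Trim25 and Adar, and CKp25 at 6 weeks in Aim2, Samhd1 and Mavs. Of these neighbouring pairs only Dhx58 and Eif2ak2 were called. Fitted over both times together, with time as a term, 8 of 9 members were called higher in CKp25 where 37.5% of genes were called, 19.5% higher and 18.1% lower, with Adar at 0.10 ± 0.06 (adjusted p = 0.179, edgeR) and Mavs at 0.60 ± 0.17 (adjusted p = 0.0116). With the share of multiply aligned reads as a covariate Adar was called as well (0.15, adjusted p = 0.0401).

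The other genes of these pathways were taken from 8 lists of 92 genes, of which 85 could be tested. At 2 weeks 43 were called higher in CKp25 and 5 lower, and at 6 weeks 40 higher and 6 lower, beside the shares of all genes given above. Their median log2 fold change was 0.65 at 2 weeks and 0.74 at 6 weeks. Some, such as Oas3 (1 and 0 counts in CK at 2 and 6 weeks) and Mx1 (4 and 2), passed the low-count filter through their CKp25 libraries. How many would pass on the CK libraries alone was not counted. The numbers called and the medians of these lists therefore describe the listed genes and support nothing further. The difference between the times was called for 0 of 85 by edgeR, DESeq2 and limma-voom, where edgeR called 0.553% of all genes tested. Of the 85, 10 had an unadjusted edgeR p under 0.05, as had 2077 of all 14457 genes tested.

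Of 17 genes of RIG-I-like receptor and MAVS signalling, 5 were called higher and 1 lower at 2 weeks, and 5 higher and 2 lower at 6 weeks, with medians of 0.09 and 0.32. Irf7, the interferon-induced transcription factor that amplifies interferon output, rose by 5.53 ± 0.24 (adjusted p = 1.99e-10, edgeR) at 2 weeks and 4.44 ± 0.25 at 6 weeks (adjusted p = 1.91e-09). Ddx60, a helicase linked to RIG-I signalling, rose by 4.76 ± 0.31 and 4.19 ± 0.31, and Ddx58, which encodes RIG-I itself, by 3.31 ± 0.19 and 2.83 ± 0.20. Tbk1, the kinase that phosphorylates IRF3, was at 0.04 ± 0.10 (adjusted p = 0.836) at 2 weeks and fell by 0.31 ± 0.10 (adjusted p = 0.021) at 6 weeks. That call was lost without CK_6wk_3938 (0.0707), CK_6wk_4009 (0.0577) or CKp25_6wk_3937 (0.0737), with thinned counts (0.0722) and with the share of multiply aligned reads as a covariate (-0.18, adjusted p = 0.258). Ikbke, the kinase related to Tbk1 and named here after its values were seen, was at 0.94 ± 0.41 (adjusted p = 0.128) at 2 weeks and rose by 1.70 ± 0.39 (adjusted p = 0.00302) at 6 weeks. Tomm70a, a mitochondrial import receptor that docks MAVS signalling partners, fell by 0.26 ± 0.08 (adjusted p = 0.0259) and 0.34 ± 0.08 (adjusted p = 0.00257). Its call at 2 weeks was lost without CK_2wk_4520, CK_2wk_4891, CK_2wk_4893 or CKp25_2wk_4894 (adjusted p of 0.0506 to 0.13).

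Cytosolic DNA sensing and the AIM2 inflammasome had 10 of 13 genes called higher at 2 weeks and 9 of 13 at 6 weeks, none lower, with medians of 1.69 and 1.70. Ifi204, an AIM2-like DNA receptor, had 361 counts in CKp25 against 3 in CK at 2 weeks, a ratio of 103 (95% counting interval 35.1 to 503), and rose by 5.22 ± 0.43 (adjusted p = 1.28e-07, edgeR) at 6 weeks. Pyhin1, of the same family, had 157 against 1 at 2 weeks, a ratio of 135 (23.8 to 5358), and rose by 4.62 ± 0.56 (adjusted p = 1.02e-05) at 6 weeks. These receptors belong to a cluster of similar genes, and reads that align to more than 1 place were not counted, so their levels are uncertain. Pycard, which encodes the inflammasome adaptor ASC, rose by 2.94 ± 0.37 (adjusted p = 1.71e-05) and 3.80 ± 0.41 (adjusted p = 2.49e-06).

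The OAS and RNase L list, enzymes that make and read the 2′-5′ oligoadenylate signal, had 8 of 9 genes called higher at 2 weeks and 7 of 9 at 6 weeks. Its median was 5.12 at 2 weeks and 4.59 at 6 weeks, or 4.40 with Oas3 at its lower bound. Oasl2 rose by 5.67 ± 0.27 (adjusted p = 2.8e-10, edgeR) and 4.68 ± 0.27 (adjusted p = 2.44e-09). Oas3 had 122 counts in CKp25 against 1 in CK at 2 weeks, a ratio of 105 (18.5 to 4171), and was at least 21.1-fold higher at 6 weeks, and Oas1a had 240 against 3 at 2 weeks, a ratio of 68.7 (23.2 to 335), and rose by 5.03 ± 0.49 at 6 weeks (adjusted p = 9.46e-07). Oas1 genes are near-identical copies, so their separate counts are uncertain.

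Endosomal nucleic acid receptors had 7 of 9 genes called higher at 2 weeks and 8 of 9 at 6 weeks, with medians of 1.79 and 2.07. Unc93b1, the chaperone that carries these receptors to endosomes, rose by 2.37 ± 0.18 (adjusted p = 5.16e-08, edgeR) and 2.83 ± 0.18. Tlr13, a receptor for bacterial ribosomal RNA, rose by 2.27 ± 0.27 and 2.58 ± 0.25, and Tlr7, a receptor for single-stranded RNA, by 2.25 ± 0.30 and 2.58 ± 0.30.

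Other nucleases and restriction factors had 8 of 14 genes called higher and 2 lower at 2 weeks, and 7 higher and 2 lower at 6 weeks, with medians of 1.31 and 1.45. The dynamin-like GTPases that trap viral particles led the list. Mx1 rose by 6.33 ± 0.44 (adjusted p = 1.53e-08, edgeR) at 2 weeks and had 192 counts against 2 at 6 weeks, a ratio of 89.5 (24.5 to 745), and Mx2 rose by 5.00 ± 0.48 and 4.13 ± 0.52. Bst2, the tetherin that holds budding virus at the membrane, rose by 4.57 ± 0.31 and 3.92 ± 0.34. The genes called lower were Pld3, a lysosomal exonuclease abundant in neurons, which fell by 0.43 ± 0.07 and 0.42 ± 0.07, and Lsm11, a histone pre-mRNA processing factor, which fell by 0.37 ± 0.11 and 0.85 ± 0.11. The Lsm11 call at 2 weeks was lost without CK_2wk_4520, CK_2wk_4893, CKp25_2wk_4890 or CKp25_2wk_4894 (adjusted p of 0.0519 to 0.0884).

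The list of eIF2α kinases other than PKR and integrated stress response genes had 1 of 10 called higher (Ddit3) and 1 lower (Asns) at 2 weeks. At 6 weeks 1 was higher (Ddit3), and the medians were 0.08 and 0.04. The list mixes kinases parallel to PKR with genes downstream of it, so its medians do not measure PKR output. Ddit3, which encodes CHOP, rose by 0.60 ± 0.16 (adjusted p = 0.0115, edgeR) and 0.70 ± 0.16 (adjusted p = 0.00244), and without CKp25_2wk_4894 the first was not called (adjusted p = 0.0668). Asns, asparagine synthetase and a target of ATF4, fell by 0.45 ± 0.11 (adjusted p = 0.0054) at 2 weeks and was at -0.20 ± 0.10 (adjusted p = 0.162) at 6 weeks, where it was called without CKp25_6wk_4008 (-0.33, adjusted p = 0.021). Phosphorylation of eIF2α is not measured by these counts.

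ZBP1 and RIPK death signalling had 3 of 4 genes tested called higher at each time, with medians of 0.69 and 0.82. Casp8 rose by 2.13 ± 0.25 (adjusted p = 7.07e-06, edgeR) and 1.29 ± 0.24, Ripk1 by 0.73 ± 0.22 and 0.86 ± 0.21, and Cflar, the caspase 8 regulator c-FLIP, by 0.65 ± 0.13 and 0.74 ± 0.13. The Ripk1 call at 2 weeks was lost without CK_2wk_4891 (adjusted p = 0.0875, edgeR), CK_2wk_4893 (0.0947) or CKp25_2wk_4894 (0.125) and with thinned counts (0.0567). Ripk3 and Mlkl, the kinase and the pore-forming protein of necroptosis, were too low to test. Mlkl, given after its counts were seen, had 24 counts in CKp25 against 2 in CK at 2 weeks, a ratio of 10.3 (2.56 to 89.9), and 14 against 2 at 6 weeks.

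Other adenosine deaminases and double-stranded RNA binders had 1 of 9 genes called higher (Dhx9) and 1 lower (Adarb1) at 2 weeks and 2 lower (Adarb1, Stau2) at 6 weeks, with medians of -0.04 and -0.07. Adarb1, which encodes the neuronal editing enzyme ADAR2, fell by 0.32 ± 0.09 (adjusted p = 0.0243, edgeR) and 0.40 ± 0.09 (adjusted p = 0.00333). Leaving out any 2-week library but CKp25_2wk_4518 ended the Adarb1 call at 2 weeks (adjusted p of 0.052 to 0.152), and the share of multiply aligned reads as a covariate ended that at 6 weeks (-0.28, adjusted p = 0.0666). Dhx9, a helicase that unwinds double-stranded RNA, rose by 0.30 ± 0.07 (adjusted p = 0.00851) at 2 weeks and was at 0.06 ± 0.08 (adjusted p = 0.594) at 6 weeks, and its 2-week call was lost without CKp25_2wk_4894 (0.0549). Stau2, a neuronal RNA transport protein, fell by 0.28 ± 0.08 at 6 weeks (adjusted p = 0.0157), a call lost without CK_6wk_3936 (0.077), CKp25_6wk_3937 (0.0747) or CKp25_6wk_4008 (0.0588).

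**Figure D4:**
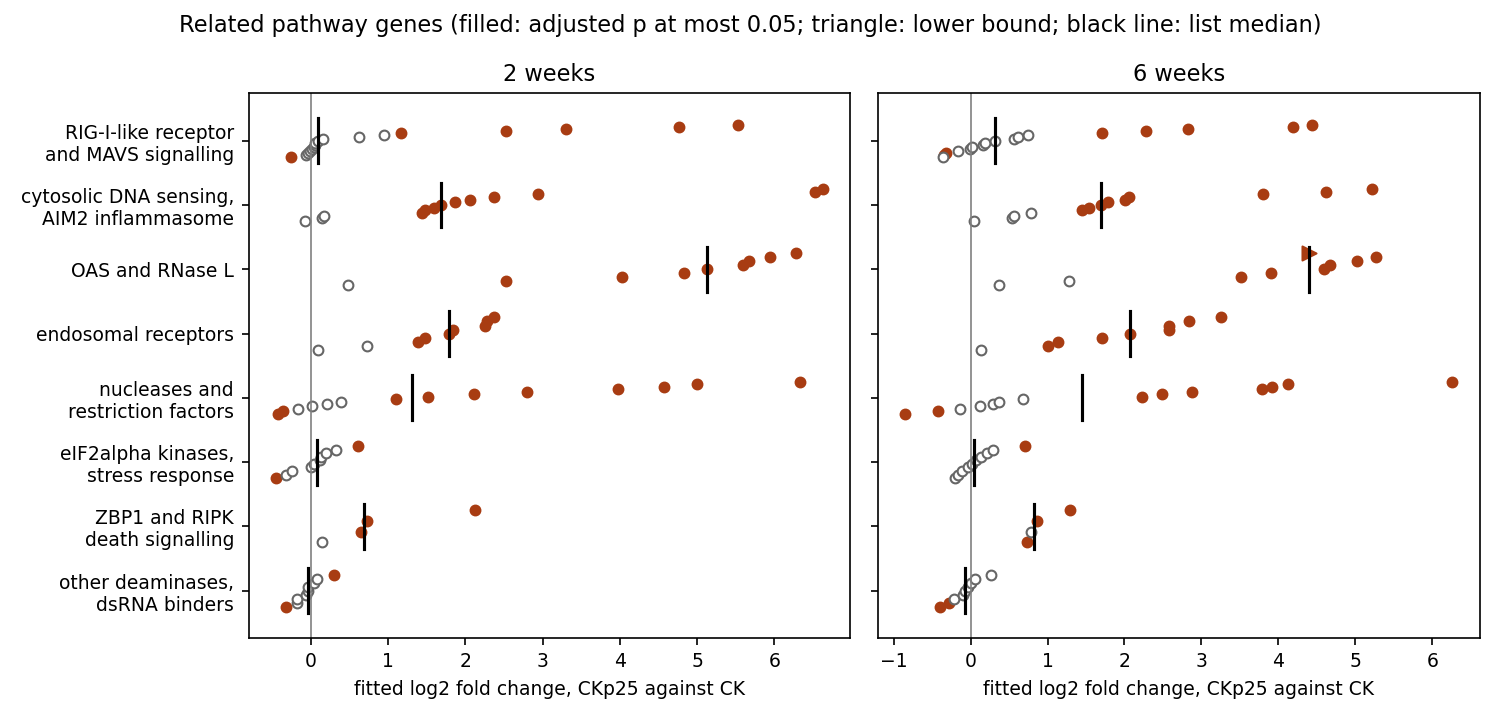
Fitted log2 fold change of CKp25 against CK for 85 related genes in 8 lists, at 2 weeks (left) and 6 weeks (right). Filled points passed an adjusted p of 0.05, black lines are list medians, and the triangle is Oas3 at its lower bound at 6 weeks. The OAS and RNase L list has the median farthest from 0, at 5.12 and 4.40, and the stress response and deaminase lists lie around 0.

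Between the times within CKp25, 4 of the 85 related genes were called higher at 6 weeks and 12 lower, beside 6.12% and 5.53% of all genes. Those higher were Irf3 (0.60 ± 0.15), Enpp1 (0.81 ± 0.24), Gsdmd (0.90 ± 0.25) and Asns (0.34 ± 0.11), all at an edgeR adjusted p of 0.0126 to 0.0428. Among those lower were Irf7, which fell by 0.70 ± 0.14 (adjusted p = 0.00449), Ddx58, which fell by 0.66 ± 0.15 (adjusted p = 0.00777), Mx1, which fell by 0.95 ± 0.23 (adjusted p = 0.0134), and Oasl2, which fell by 0.52 ± 0.16 (adjusted p = 0.0415). Irf3, Enpp1 and Gsdmd were named after their values were seen. Only some of the 12 called lower are named. By list they were 2 in RIG-I-like receptor signalling, 2 in cytosolic DNA sensing and 2 in OAS and RNase L. A further 5 were nucleases and restriction factors, and 1 was in the deaminase and RNA binder list. Without CKp25_2wk_4894 the number lower was 5. The number higher was 1 without CKp25_2wk_4518, CKp25_2wk_4894 or CKp25_6wk_4008, 2 without CKp25_2wk_4890 or CKp25_6wk_3937, and 6 without CKp25_6wk_3940.

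Markers of several cell types also differed between CKp25 and CK, in unlike ways at the 2 times. The summed level of 8 microglia markers was 202 to 238 CPM in CK, 745 to 954 CPM in CKp25 at 2 weeks and 827 to 1070 CPM in CKp25 at 6 weeks, and 8 of 8 were called higher at both times. Markers of dividing cells, 6 of 6 called higher, were 14.6 to 20.7 CPM in CK, 263 to 431 CPM in CKp25 at 2 weeks and 77.7 to 106 CPM at 6 weeks. Border and infiltrating myeloid markers were 5.26 to 12.7 CPM in CK, 8.50 to 13.5 CPM at 2 weeks and 15.3 to 30.6 CPM at 6 weeks in CKp25, with 0 and 3 of the 3 tested called (edgeR). The 8 T and NK cell markers together were at most 1.01 CPM in all groups but CKp25 at 6 weeks, where they were 1.13 to 3.80 CPM, with Cd3e at 0 there. Excitatory neuron markers were 1913 to 2247 CPM at 2 weeks and 1284 to 1739 CPM at 6 weeks in CKp25, below CK. The part of any of these in the members' changes was not tested.

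Astrocyte markers were 5108 to 5824 CPM in CK, 7068 to 7444 CPM at 2 weeks and 9570 to 12011 CPM at 6 weeks in CKp25. By edgeR 4 of 6 were called higher at 2 weeks and 6 of 6 at 6 weeks. The markers were uneven, with log2 fold changes of -0.02 to 3.10 (median 0.49) at 2 weeks and 0.46 to 3.69 (median 0.77) at 6 weeks. Oligodendrocyte markers (6 of 6 called) and endothelial markers (6 of 6 called) were higher in CKp25 at 6 weeks, and 0 of 6 of either were called at 2 weeks by edgeR. At 6 weeks the share of reads with several alignments was 6.86 to 9.52% in CK and 11.5 to 13.9% in CKp25, without overlap. With this share as a covariate the same 8 members kept their call at 6 weeks.

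Choroid plexus, the tissue in the ventricles that makes cerebrospinal fluid, varied between libraries of every group. Its 8 markers summed to 148 to 3805 CPM and 0 of 8 were called between genotypes at either time by edgeR. In CK, Ifih1 was 6.31 to 10.2 CPM in the 3 libraries with sums of 1131 CPM or more (CK_2wk_4520, CK_6wk_3936, CK_6wk_4009) and 4.06 to 5.46 CPM in the other 3, and Aim2 was 1.92 to 2.44 against 0.61 to 1.23 CPM. In CKp25 at 2 weeks, by contrast, Aim2 was highest, 5.01 CPM, in the library with the lowest sum (CKp25_2wk_4890, 168 CPM). In CKp25 at 6 weeks Aim2 was lowest, 3.06 CPM, in the library with the lowest sum, CKp25_6wk_3940. CKp25_6wk_3940, the low library above, had the lowest choroid plexus sum of its group, 202 CPM beside 2008 and 3392. It was also lowest of its group in microglia (827 CPM), astrocyte (9570), oligodendrocyte (4018), endothelial (221), border myeloid (15.3) and T and NK cell markers (1.13). In excitatory neuron markers (1739 CPM) it was the highest, and in dividing cell markers (81.5) it lay between the others. Whether any of these relates to its low levels was not tested. With the choroid plexus marker level as a term beside the 4 groups, a test read after these values were seen, Ifih1 changed by 0.13 ± 0.03 per log2 unit (adjusted p = 0.0248, edgeR) and was the 1 member of 9 called, where 1.31% of genes were. Eif2ak2 was at 0.10 ± 0.02 (adjusted p = 0.0637) and Aim2 at 0.12 ± 0.07 (adjusted p = 0.589). The genotype calls of all 8 members at 6 weeks and all 7 at 2 weeks held with this term.

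**Figure D5:**
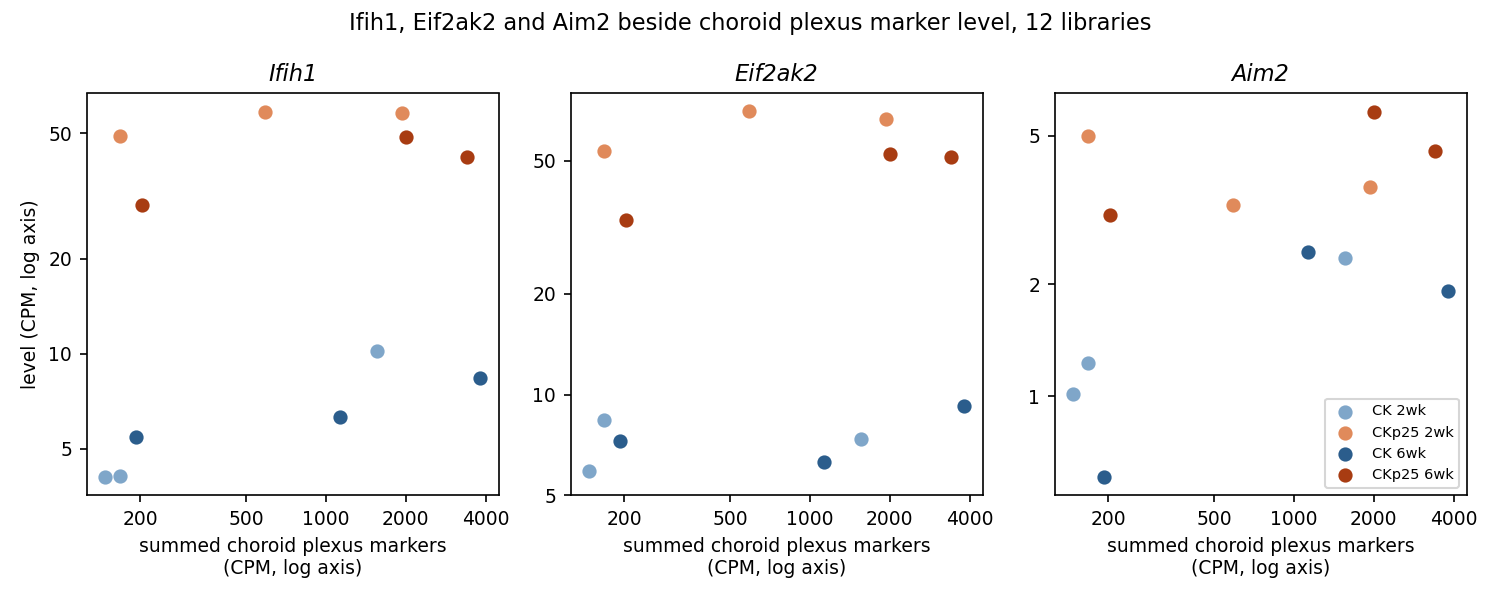
Level of Ifih1, Eif2ak2 and Aim2 (CPM, log axis) against the summed choroid plexus markers (CPM, log axis), 1 point per library (12), coloured by group. CKp25 points lie above CK points at every marker level, and in CK the Ifih1 points at sums of 1131 CPM or more lie at 6.31 CPM or above.

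For each member but Adar the 3 tested genes with the most similar pattern were taken by Pearson's r of log2 CPM over the 12 libraries. These libraries form a CK and a CKp25 cluster, so r mostly reflects the genotype step and is given as a description of likeness alone. Nearest to Zbp1 was Cd52 (0.991), followed by Parp9 and Il10ra, and nearest to Ifih1 was Samd9l (0.995), followed by Parp14 and Ifi35. Dhx58 was nearest to Fam111a (0.985), Oasl2 and Eif2ak2, Eif2ak2 to Irf7 (0.992), Parp9 and Trim30a, and Trim25 to Herc6 (0.991), Ctsd and Bst2. Samhd1 was nearest to Aqp4 (0.987), the astrocyte water channel, then Rrbp1 and H2-T23, and Aim2 to B4galt1 (0.952), H2-Ab1 and Sla. Mavs was nearest to Fhl1 (0.932), Pard3b and Ticam1.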

How the data were processed

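RNA was sequenced from 12 hippocampal libraries, 3 in each of 4 groups, after ribosomal RNA removal with a stranded kit per the labels' protocols. The authors deposited raw read counts per Ensembl gene. The submitters' processing notes name the tools HTSeq 0.6.1, Bowtie, MACS2 and Picard and the builds NCBIM37 and mm9, with no role stated for each. Whether reads were counted by strand was not given in the sources used here. The last 5 entries of the count table are read classes and not genes, and entered neither library sizes nor tests: reads in no feature were 38.1 to 46.9% of a library, unaligned reads 6.13 to 11.1%, multiply aligned reads 6.81 to 14.3% and ambiguous reads 0.137 to 0.165%. Symbols matched 32919 of 37991 identifiers (86.6%), and 2 list genes (Mb21d1, Pyhin1) were matched through RefSeq synonyms.

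Counts were fitted in R 4.3.3 with edgeR 4.0.16 (filterByExpr, TMM, quasi-likelihood, 4 group means, Benjamini-Hochberg over 14457 genes), and the script was tested on simulated data. Log2 CPM for likeness used a pseudocount of 0.5. The members and lists were chosen with earlier results of these data known. All members are named, as are, of each related list, the 3 genes with the largest change at 2 weeks among those called at either time, every gene called lower in CKp25, and for each member the 3 genes nearest by Pearson's r (those of Adar are not reported here). Alternatives were DESeq2 1.42.0, limma-voom (3.58.1), other scalings and filters, each library left out, added terms and counts thinned to 50%. Histone mark peak lists (mm9) were not used here, since no gene starts of that build were at hand.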

Additional observations from a re-analysis of the deposited data

How the results depend on the processing

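No paired analysis was possible because libraries of different groups share no number. A term for the series of library numbers, 2 at each time, was fitted instead, which is not a pairing. Over 23 alternatives 6 to 8 members were called at 2 weeks and 7 to 8 at 6 weeks, and Zbp1, Ifih1, Dhx58, Samhd1, Eif2ak2 and Trim25 kept their call in all 23 at each time. Leaving out 1 library gave 6 to 8 and 7 to 8 members, 2 to 6 related genes lower at 2 weeks, and 1806 to 3056 genes of any kind at 2 weeks (1806 without CKp25_2wk_4894). The 2-week lower count was 2 without CK_2wk_4520, CK_2wk_4893 or CKp25_2wk_4894 and 3 without CK_2wk_4891 or CKp25_2wk_4890. Within CKp25 between times it gave 0 to 3 members, 1 to 6 related genes higher, 5 to 14 lower and 839 to 2029 genes. Members called there were 0 with DESeq2, with the share of multiply aligned reads as a covariate or with both CK_2wk_4520 and CKp25_2wk_4518 left out, and 1 with the compared groups alone or counts thinned to 50%. Related genes higher there were 2, 7, 1 and 0 with DESeq2, that covariate, both libraries left out and thinning. For the difference between times, 24 to 204 genes were called with 1 library left out, 693 with no filter, 219 with DESeq2, 305 with the library series term, 301 with multiply aligned reads, 287 with choroid plexus markers and 44 with thinning, against 80. Of the related genes, no filter called 1 higher (Enpp1) and 3 lower (Traf3, Ifi203, Lsm11), the series term 1 lower (Ifi203), multiply aligned reads 1 higher (Enpp1), and choroid markers 1 higher (Enpp1) and 1 lower (Ifi203). Genes called between times within CK were 130 with no filter and 26 with both libraries left out, against 0. Some small estimates, none of them called, changed sign. Adar at 6 weeks was -0.0065 with no filter, -0.0071 with both libraries left out, -0.0031 with choroid markers and -0.046 to 0.053 with 1 library left out. Tbk1 at 2 weeks was -0.048 with both left out (-0.067 to 0.11 with 1 left out), and Dhx9 at 6 weeks -0.052 with multiply aligned reads. For the difference between times Aim2 was -0.47 with both left out (-0.40 to 0.43 with 1) and Samhd1 0.12 with multiply aligned reads (-0.27 to 0.075 with 1). Within CK between times, Aim2 was -0.021 with limma-voom, -0.078 with multiply aligned reads, -0.10 with choroid markers and -0.47 with thinning (-0.27 to 0.56 with 1 left out), Ifih1 was -0.12, -0.090 and -0.077 with the last 3 of these (-0.12 to 0.73), Samhd1 -3.79e-05 with multiply aligned reads, Eif2ak2 -0.063 with choroid markers (-0.087 to 0.20), and with both left out Trim25 was -0.17 (-0.16 to 0.21) and Mavs 0.015 (-0.27 to 0.18). Within CKp25 between times, Aim2 ran from -0.060 to 0.37 and Samhd1 from -0.16 to 0.18 with 1 left out. The cause of these shifts was not tested. Fits with the compared groups alone could not be made for the difference between times or the effect over both times. Depth limits Zbp1, Aim2 and Dhx58, with few counts in CK.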
